A study of Mus musculus with 9 samples.

Results

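The CTCF peaks described here were called in IL7-cultured pro-B cells on chromosomes 1 to 19 and overlapped no CTCF peak of pre-B cells and no Rad21 peak of any of the 3 cell types with a Rad21 list. They are called IL7-only peaks below. By this rule, with 1 bp or more counted as an overlap, 24388 of the 69153 CTCF peaks of the IL7 culture on these chromosomes were IL7-only, and this share, 35.3%, is fixed by the rule and is not a result. The members were chosen by the presence and position of peaks in the 5 deposited lists, so their lack of CTCF in pre-B cells and of Rad21 is a description. Such a site was not called in the other lists, and it may still have been bound in those cells below the level of a call.

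All cells came from C57BL/6 mice lacking RAG1, which cannot rearrange their antigen receptor genes. The IL7 cells were RAG1-/- bone marrow pro-B cells, from mice aged 6 to 14 weeks, kept for 7 days in medium with the supernatant of J558 cells that stably express IL7. The pre-B cells came from RAG1-/- bone marrow, from mice of the same ages, that carried a rearranged IgM heavy chain transgene, and were not cultured. DN thymocytes came from RAG1-/- mice and DP thymocytes from RAG1-/- mice with a rearranged TCRβ transgene, both aged 4 to 8 weeks, and only Rad21 was used for these cells. There was 1 library per condition and no replicate, so no test between conditions was run, and the effects of stage, transgene, culture and library cannot be told apart. Peak lists hold no expression values, so the cells were not checked against their marker genes. The CTCF and Rad21 libraries of pre-B cells shared 1 input. The 2 CTCF lists also differed in length and reach: the IL7 list held 71080 peaks down to a score of 50, and the pre-B list held 42250 peaks down to a score of 66.97. Read depths are not known. Intervals below are exact 95% Clopper-Pearson intervals and cover counting error only.

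CTCF is a zinc-finger protein that binds a long, well-defined DNA motif and, where cohesin is halted on it, marks the base of chromatin loops. Rad21 is a subunit of cohesin, so Rad21 peaks show where cohesin accumulates. In pro-B cells, IL7 supports survival and proliferation, and loops anchored at CTCF sites bring distant V genes near the D and J genes of the receptor loci. Peaks of a CTCF ChIP can also lie at active, CpG-rich promoters with or without the motif.

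The sequences of the highest-scoring IL7-only peaks with a CTCF match are shown first, because they hold the motif that this antibody should enrich. Each run is 60 bases of mm9, 5′ to 3′ on the strand of the match, and capitals mark the 20 bases aligned to a matrix built from other CTCF peaks of this list.
Cacna1a, chr8:87163280-87163339, plus strand: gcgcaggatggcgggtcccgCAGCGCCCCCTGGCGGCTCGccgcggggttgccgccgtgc
Mapt, chr11:104092629-104092688, plus strand: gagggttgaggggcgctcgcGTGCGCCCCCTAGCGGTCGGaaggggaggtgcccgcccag
Arhgap39, chr15:76648611-76648670, minus strand: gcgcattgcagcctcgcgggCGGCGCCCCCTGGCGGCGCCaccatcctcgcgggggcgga
Ankrd52, chr10:127814081-127814140, minus strand: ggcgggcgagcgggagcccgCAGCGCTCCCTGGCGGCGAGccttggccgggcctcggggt

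The next pair comes from the highest-scoring promoter members without a match to either the consensus or the matrix. These are the middle 60 bases of each peak, on the plus strand, with no part in capitals.
Syt7, chr19:10463353-10463412: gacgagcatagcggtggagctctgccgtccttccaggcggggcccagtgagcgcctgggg
Zfp644, chr5:107003710-107003769: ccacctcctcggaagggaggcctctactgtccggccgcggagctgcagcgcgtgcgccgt

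Members with a match that scored nearest to the median of the IL7 list are shown for comparison with the top of the list, and their peaks had GC contents of 45.5% and 51.8%. The first lies 1608 bp from the start of Cyr61 and the second 22014 bp from that of Kcna5.
Near Cyr61, chr3:145311196-145311255, minus strand: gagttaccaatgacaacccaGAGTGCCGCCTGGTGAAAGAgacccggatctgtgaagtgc
Near Kcna5, chr6:126463351-126463410, plus strand: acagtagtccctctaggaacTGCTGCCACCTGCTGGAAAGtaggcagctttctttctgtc

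IL7-only peaks were mostly the weak end of the IL7 list. Their median score was 96.0, with quartiles of 65.7 and 167, and the median member scored higher than 23.4% of the list. The medians of the other IL7 peaks were 391 for the 11463 peaks shared with pre-B CTCF without Rad21 and 1174 for the 29114 shared with pre-B CTCF and with Rad21. Another 4188 peaks overlapped Rad21 but no pre-B CTCF, and these scored nearly as low as the IL7-only peaks, with a median of 107. The score comes from the p-value of the peak caller and grows with depth, and it was ranked within the IL7 list alone.

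When the list was cut into 10 classes of score, the IL7-only share was 78.0% in the lowest class, 59.2% in the fourth and 22.6% in the sixth. It was 1.13% in the eighth class and 0.0994% in the highest, where 7 of 7046 peaks were IL7-only.

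**Figure D1:**
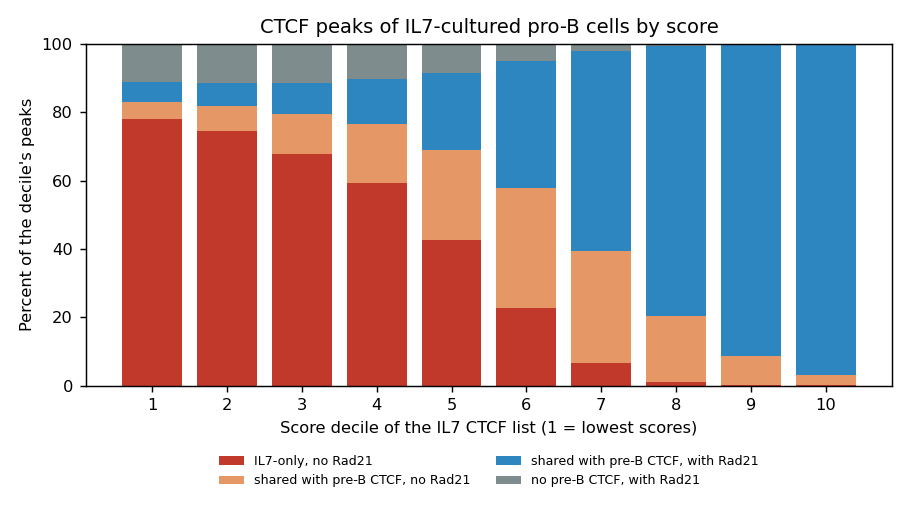
Bars give, for each of 10 score classes of the IL7 CTCF list from the lowest (1) to the highest (10), the percent of peaks that were IL7-only, shared with pre-B CTCF with or without Rad21, or with Rad21 but no pre-B CTCF. The IL7-only share goes from 78.0% in class 1 to 0.0994% in class 10.

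Above the median score of the file, 2114 peaks were IL7-only, 6.11% of the 34615 peaks above it, against 22274 members at or below it. The median was 305.765, the lowest member above it scored 305.800 and the highest below it 305.750. These 2114 stronger members are given separately below. With only peaks scoring at least 100 kept in all 5 lists there were 3960 members above the median, because shortening the other lists takes away their partners. When the IL7 list was instead limited to its 42250 highest scores, as many as the pre-B list holds, 4855 members were left, 11.8% of that list's peaks on chromosomes 1 to 19.

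At the edge of the overlap rule, the nearest members touched another peak without a shared base, such as chr9:62192385-62192725 with a score of 96.2. Just outside, chr11:99435872-99436097 with a score of 71.4 shared 2 bases with a peak and was left out. Such near misses were few: 344 members (1.41%) lay within 100 bp of a peak of another list and 2880 (11.8%) within 1000 bp. The median distance to the nearest pre-B CTCF peak was 11784 bp over all members and 15796 bp over the stronger ones. For pre-B Rad21 the medians were 17881 bp and 27606 bp.

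IL7-only peaks were also narrow. The median width was 319 bp (quartiles 265 and 378 bp), against 405 bp for shared peaks without Rad21 and 490 bp for shared peaks with Rad21. Among the stronger members it was 389.5 bp, against 441 bp for shared peaks above the median without Rad21 and 509 bp for those with Rad21. The median scores of these above-median groups were 414, 636 and 1316. Width rose with score in every group. In the lowest score class the medians were 278 bp for IL7-only peaks and 296 and 308 bp for shared peaks without and with Rad21. In the sixth class they were 381, 411 and 423 bp. A narrow peak also has less room to overlap another, and the part of the rule in these widths was not tested.

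The motif was searched by the 12-base consensus that the study's HOMER run found de novo, on both strands with at most 2 mismatches. It was found in 6572 IL7-only peaks, 26.9% (interval 26.4% to 27.5%). Sequence of the same length 2000 bp to either side held it in 4.06%. Over every IL7 peak the share was 39.0%, so the members fell short of their own list while standing above their surroundings. Among the stronger members it was 37.7% (35.6% to 39.8%), with 5.06% in neighbouring sequence, against 52.3% of every IL7 peak above the median.

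A 20-base matrix, built from 2359 peaks shared with pre-B CTCF and Rad21 on even chromosomes and so from no member, gave a higher share. It matched 47.5% of IL7-only peaks (46.9% to 48.1%) and 3.23% of their neighbouring sequence, against 60.9% of every IL7 peak. Of the stronger members 59.1% had a match (56.9% to 61.2%), against 76.4% of every IL7 peak above the median. The matches lay near the middle of the peaks, with a median of 24.5 bp from the midpoint of members and 26.5 bp for the stronger ones. Shared peaks matched more often, at 68.5% without Rad21 and 74.1% with it, but the latter include the peaks from which the matrix was made.

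Within one class of score the order changed. In the lowest class the matrix matched 39.1% of IL7-only peaks (37.8% to 40.4%) and 44.8% of shared peaks without Rad21 (39.5% to 50.1%). In the same class it matched 20.3% of shared peaks with Rad21 (16.5% to 24.6%) and 13.2% of Rad21 peaks without pre-B CTCF (10.9% to 15.8%). By the consensus the intervals of this class overlapped, with 20.5% of IL7-only peaks (19.4% to 21.6%) and 16.6% of shared peaks with Rad21 (13.1% to 20.6%). Promoters moved with the matrix shares: they took 13.2% of IL7-only peaks in this class and 32.01% of shared peaks with Rad21. Over all peaks at or below the median score, a wider range, the matrix matched 46.4% of IL7-only peaks and 41.6% of shared peaks with Rad21. Away from promoters in this range it matched 49.7% of IL7-only peaks and 50.1% of shared peaks with Rad21. It matched 65.1% of shared peaks without Rad21 there and 34.0% of Rad21 peaks without pre-B CTCF. In the seventh class, 59.6% of IL7-only peaks matched (54.9% to 64.1%), below the 71.4% of shared peaks with Rad21 (69.96% to 72.8%).

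**Figure D2:**
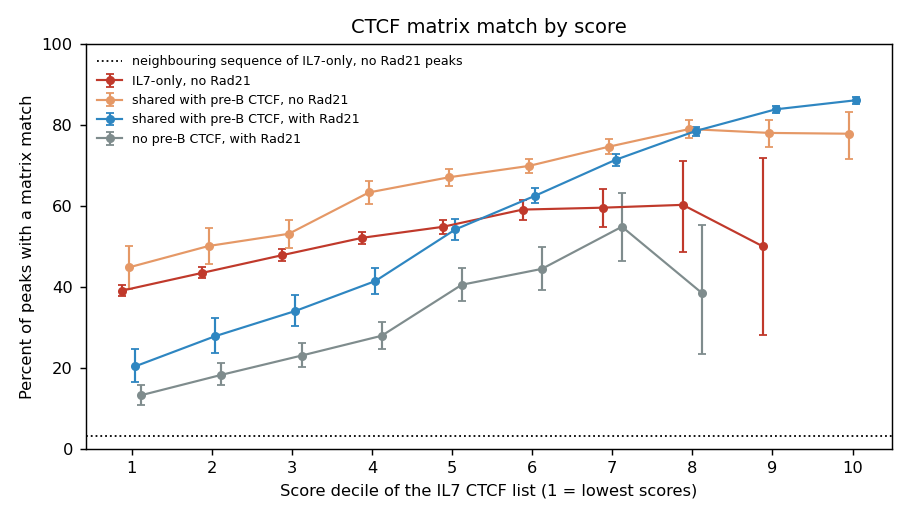
Points give the percent of peaks with a matrix match in each of the 10 score classes of the IL7 list, with exact 95% intervals, for the 4 groups of peaks with at least 20 peaks in the class. The dotted line is the 3.23% found in neighbouring sequence of IL7-only peaks, and IL7-only peaks lie above the groups with Rad21 in the lowest 4 classes and below the shared groups from the sixth class on.

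Part of the IL7-only motifs sat inside a sequence that recurs in the genome. An alignment of matrix matches in shared peaks without Rad21 on even chromosomes, with no member in it, gave a common block that runs 30 bases to each side of the match. It is shown because its capitals are a CTCF motif in a fixed context, and the aligned letters come from 299 peaks.
Aligned block, 80 bases: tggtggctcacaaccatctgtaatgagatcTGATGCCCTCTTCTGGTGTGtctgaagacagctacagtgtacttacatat
Yars, chr4:128889904-128889963, minus strand: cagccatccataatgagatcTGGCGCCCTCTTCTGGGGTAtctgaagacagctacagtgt
Toward Kcnq5, chr1:22106011-22106070, plus strand: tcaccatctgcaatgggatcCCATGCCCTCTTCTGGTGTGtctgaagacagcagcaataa
Inside Rgs6, chr12:83873730-83873789, plus strand: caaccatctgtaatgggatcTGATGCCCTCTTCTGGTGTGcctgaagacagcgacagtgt

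The Yars, Kcnq5 and Rgs6 peaks were the highest-scoring members with the block outside chromosome 18 and annotated UTRs, with scores of 862, 714 and 658. The Kcnq5 peak lay 153804 bp from the start of that gene. Copies of B2 short interspersed elements are known in the mouse to carry CTCF sites, but whether the block is such an element was not tested, since no repeat annotation was used here. The last copy lies in an intron of Rgs6 and over the start of a gene model named SNORA17, a name given to many short models.

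With at least 50% of the 60 flanking bases equal to the block, 2808 IL7-only peaks carried it, 11.5% (11.1% to 11.9%), against 0.927% of their neighbouring sequence. Over every IL7 peak the share was 7.34%. Shared peaks without Rad21, on which the block was learnt, carried it in 11.4%, while shared peaks with Rad21 carried it in 2.92% and Rad21 peaks without pre-B CTCF in 2.75%. At limits of 60%, 70% and 80% identity the IL7-only share was 9.80%, 7.71% and 6.58%. The limit was set after the identities had been seen.

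The block went with low scores. It was in 14.6% of IL7-only peaks of the lowest class of score, 8.04% of the fifth and 2.20% of the seventh. Among members with the block 3.03% scored above the median, and among members with a matrix match outside the block 13.3%. Of the stronger members 4.02% carried it (3.22% to 4.95%), against 3.41% of every IL7 peak above the median. Matrix matches were still in 40.7% of IL7-only peaks without the block, and in 57.4% of the stronger ones. For every IL7 peak without the block these shares were 57.8% and 75.6%. At or below the median score, the share without the block was 38.9% (38.3% to 39.6%), and that of shared peaks with Rad21 was 38.1% (36.6% to 39.7%). Shared peaks without Rad21 gave 51.3% (49.7% to 52.9%) and Rad21 peaks without pre-B CTCF 21.4%.

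**Figure D3:**
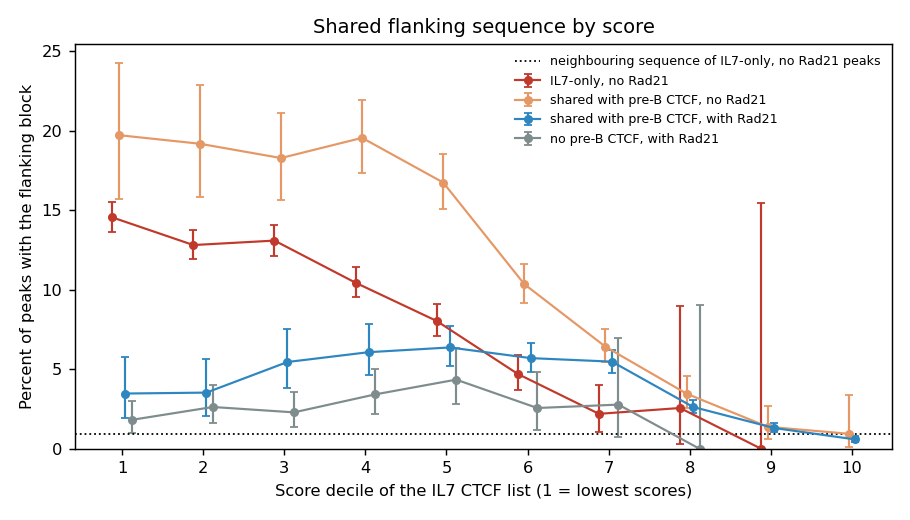
Points give the percent of peaks whose matrix match lies in the flanking block, by score class of the IL7 list, with exact 95% intervals, for groups with at least 20 peaks in the class; the dotted line is the 0.927% of neighbouring sequence. Both groups without Rad21 start high, IL7-only peaks at 14.6%, and fall with score, while both groups with Rad21 stay at 6.37% or less.

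Reads aligning at as many as 3 positions were retained by the authors, which bears on peaks in repeated sequence. Members with the block had a mean of 32.6% of their 36-base words at more than 1 place in the genome, against 6.42% for members with a match outside the block. At least 50% of the words were repeated in 1484 IL7-only peaks, 6.08% of them, against 3.67% of every IL7 peak, 3.32% of shared peaks without Rad21 and 1.98% of those with Rad21. Among the stronger members it was 4.59%, against 2.19% of every IL7 peak above the median. The part of read mapping in these shares was not tested.

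Short letters of other factors were counted on both strands with the matrix match hidden, which bears on whether IL7-only peaks hold sites of B-lineage factors. The RUNX letters TGTGGTT were in 15.5% of IL7-only peaks (15.0% to 15.9%) and 6.86% of their neighbouring sequence, while every IL7 peak gave 14.5%. The letters were not spread evenly: 69.4% of members with the block held them somewhere in the peak, against 8.67% (8.09% to 9.28%) of members with a match outside it and 8.30% (7.82% to 8.79%) of members without a match. These last shares still lay above the neighbouring sequence. Among the stronger members 11.8% held the letters (10.4% to 13.2%), below the 13.4% of every IL7 peak above the median.

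No other set of letters had a gap of this size. STAT letters TTCNNNGAA, of the family that acts downstream of the IL7 receptor, were in 8.50% of IL7-only peaks and 9.44% of their neighbours. AP-1 letters TGANTCA gave 9.15% against 8.81%, and the PU.1 letters GAGGAAG gave 10.3% against 9.74%. EBF1 letters CCCNNGGGA gave 4.97% against 3.42%, and E-box letters CAGCTG 15.1% against 12.4%. On all 5 of these sets the members fell below their own list, in which 11.4% of every IL7 peak held the STAT letters, 11.4% those of AP-1, 14.4% those of PU.1, 6.95% those of EBF1 and 20.9% the E-box. Letters of CpG-rich promoters were more frequent than nearby, with SP1 letters GGGCGG in 9.11% against 4.56% and ETS letters CCGGAAG in 2.19% against 1.22%, while CCAAT letters were less frequent, at 30.2% against 35.1%. Over every IL7 peak the SP1 and ETS shares were 13.8% and 3.85%. The stronger members held each of the 9 sets of letters less often than every IL7 peak above the median did, for example STAT letters in 10.6% against 14.4% and SP1 letters in 11.2% against 15.0%, and these members were narrower. Shares of short letters depend on width and base composition, and a match is a description.

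By place, IL7-only peaks were mostly distal. Within 1000 bp of an annotated gene start lay 3367 of them, 13.8% (13.4% to 14.3%), against 17.6% of every IL7 peak. Shared peaks gave 15.7% without Rad21 and 18.3% with it, and Rad21 peaks without pre-B CTCF gave 40.5%. Midpoints fell in introns for 45.9%, between genes for 46.6% and in exons for 7.49%. The median distance to a start was 11850 bp. The stronger members did not move towards promoters: 13.2% lay there (11.8% to 14.8%), against 16.2% of every IL7 peak above the median. Their median distance to a start was 15935 bp.

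Promoter members differed from the rest in composition and motif, as promoter peaks of the whole list did. Their median GC content was 54.9%, against 45.8% away from promoters, and the matrix matched 26.9% of them (25.4% to 28.4%) against 50.8% of distal members (50.1% to 51.5%). Over every IL7 peak these shares were 40.9% and 65.2%. Among the stronger members the gap was similar, with 39.6% against 62.1%, and GC medians of 58.9% and 45.1%. Over every IL7 peak above the median the matrix shares were 62.4% and 79.1%. The ratio of observed to predicted CpG had a median of 0.64 at stronger promoter members and 0.17 at stronger distal ones.

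At the top of the list the place changed. Promoter shares lay between 11.2% and 15.5% in the lowest 7 classes of score. In the eighth class 18 of 78 IL7-only peaks were at promoters, in the ninth 13 of 22 and in the highest 6 of 7. The median GC contents of the last 2 classes were 68.9% and 71.9%, and these rest on 29 peaks. The other groups also rose: between the seventh and the highest class, shared peaks went from 12.4% to 35.8% at promoters without Rad21 and from 15.9% to 21.5% with it. Rad21 peaks without pre-B CTCF fell from 385 of 770 in the lowest class to 41 of 144 in the seventh, and 10 of 12 were at promoters in the highest.

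**Figure D4:**
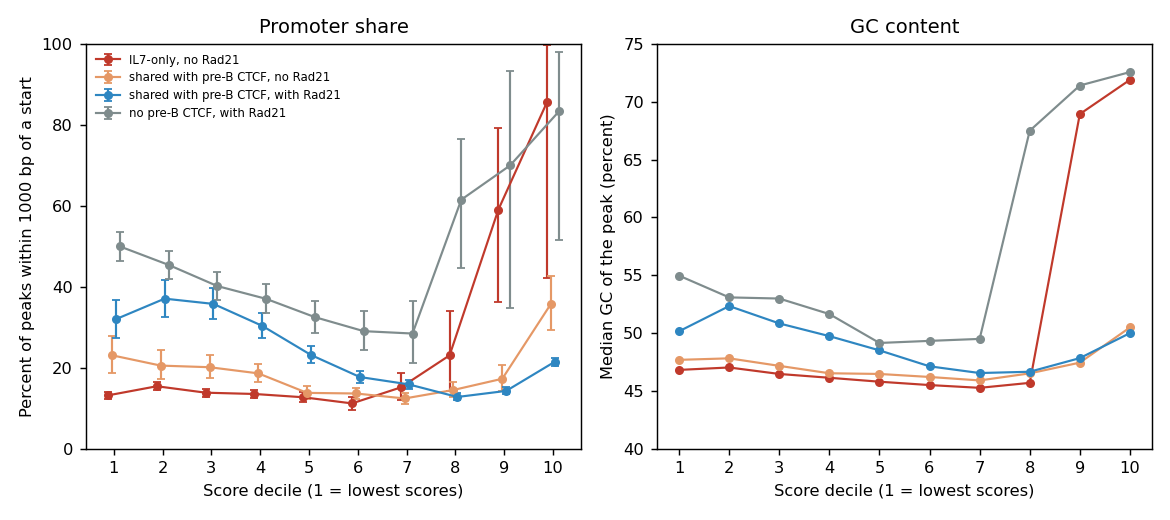
The left panel gives the percent of peaks within 1000 bp of an annotated start with exact 95% intervals, and the right panel the median GC content in percent, by score class of the IL7 list, for the 4 groups with at least 7 peaks in the class. IL7-only peaks stay near 14% promoters through the low classes and reach 6 of 7 in the highest, where their median GC content is 71.9%.

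Of the 25 highest-scoring IL7-only peaks, 17 were at promoters, 17 had a consensus match and 12 had a matrix match. A match below is one to the matrix. Their lowest score was 1324. The 17 at promoters had a median GC content of 72.1%, and 10 of them had a match. Across the whole list 527 peaks scored 3100 or more, where many are tied, and 2 of the IL7-only peaks did.

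The highest scores were in or at single genes. A peak in an intron of Slc22a3, an organic cation transporter, had a score of 3100, no match to the matrix or the consensus, and lay 2879 bp from the start at chr17:12697106-12697691. The other at 3100 lay 185 bp from the start of Cacna1a, which codes for the pore subunit of a neuronal calcium channel, and its nearest pre-B CTCF peak was 469 bp away. Mapt, the gene of the microtubule-binding protein tau, had a peak over its start with a score of 2272 and a match, and no pre-B CTCF peak within 34489 bp. Arhgap39 followed with 2197, also with a match.

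Several others at the start of a gene had no match at the matrix threshold. They included Kctd6, an adaptor of ubiquitin ligases (score 2152), Man2a2, an enzyme of glycan processing (2094), Ube2e3, a ubiquitin-conjugating enzyme (2067), and Syt7, a calcium sensor of vesicle fusion (1656). Kctd6 and Man2a2 had a consensus match, and their matrix scores of 9.65 and 10.11 were just under the threshold of 10.21. Ube2e3 and Syt7 had no consensus match. Cdc73, part of a complex that travels with RNA polymerase, had a match and a score of 1662, and lay 94 bp from a pre-B CTCF peak. In all, 4 of the 25 lay within 1000 bp of one: Cacna1a, Cdc73, Ankrd52 at 270 bp and Gclm, which codes for a subunit of glutathione synthesis, at 312 bp. Rad21 peaks were also close to some: Spin1 lay 43 bp from one in pre-B cells and 46 bp from one in DP cells, Man2a2 155 bp from one in DP cells, Gclm 305 bp from one in pre-B cells and Cacna1a 749 bp from one in DP cells.

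Further members of this group with a match were Evx2, a homeobox gene beside the Hoxd cluster (score 1635, 3297 bp from its start), 9030625A04Rik (1631), Ankrd52 (1591), Gclm (1582), Nxph3 (1564), Rcc2 (1451) and Spin1, a chromatin reader (1324). Oxr1 (1547), Sp5, a zinc-finger factor of Wnt signalling (1531), and Zfyve9 (1370) had no matrix match, though the first pair had a consensus match. Distal peaks lay 33936 bp from the start of Atp2b2 (1430), 20026 bp from Nlgn1 (1422) and 6696 bp from Col6a6 (1399). None of the 3 had a matrix match, though those near Nlgn1 and Col6a6 had a consensus match. An intergenic peak at chr17:4626019-4626730 scored 1415 without a match, lay 51290 bp from the nearest annotated start, and had 42.6% of its sampled words repeated elsewhere. Another, 23583 bp from the start of Sult1c1, had a match, scored 1380, and had 100% of its sampled words repeated elsewhere.

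Ezh2, the histone methyltransferase of a Polycomb complex that early B-cell development depends on, held 18 IL7-only peaks among the 21 CTCF peaks of the IL7 culture in its body. The gene spans 65.1 kb on the minus strand, at chr6:47480273-47545340. All 18 overlapped an exon, although exons of the annotated transcripts cover 9.52% of the gene, and 16 had their midpoint in one. Together they touched 17 of the 20 exon blocks that are left when overlapping exons are merged. None of the 18 had a matrix match and 1 had a consensus match. Ezh2 was first noticed for its peak with a score of 1649, among the 25 highest of all members, and its exons were counted after that.

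The Ezh2 peaks were not all weak. Their scores ran from 94.1 to 1649 with a median of 333, and 10 of the 18 lay above the median of the list. The highest scores after 1649 were 923, 836, 764, 571 and 555. Their median GC content was 41.3%. By the distance to annotated starts, alternative transcripts included, 9 of the 18 counted as promoter members, among them the peak with a score of 1649, which lies 49.3 kb from the start of the gene model and had a GC content of 45.8%. In the same gene body the pre-B CTCF list had 1 peak, the DP Rad21 list 3, and the Rad21 lists of pre-B and DN cells none. The sequence below is the middle 60 bases of the peak with a score of 923, chosen because it lies in an exon outside the annotated UTRs, on the plus strand of mm9.
Ezh2, chr6:47490741-47490800: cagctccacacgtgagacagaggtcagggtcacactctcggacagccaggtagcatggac

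No other protein-coding gene had such a count in exons: the next was Gm20388 with 6 midpoints in exons, in a gene model of 4435 kb, and then Pcdha11 with 5. The source of these exon peaks was not tested.

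**Figure D5:**
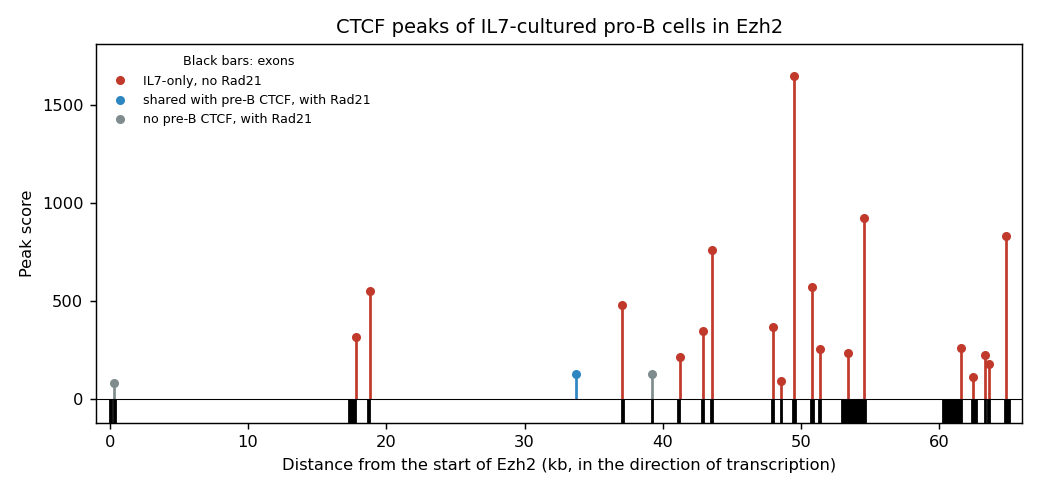
Each stem is a CTCF peak of the IL7 culture in Ezh2, placed by the distance of its midpoint from the start of the gene in kb along the direction of transcription, with its score as the height; black bars are merged exons. The 18 IL7-only peaks, in red, overlap exons, 16 of them with their midpoint in one, and reach a score of 1649, while the other 3 peaks score between 85.1 and 131.

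Other genes with many IL7-only peaks were long. Members lay in the bodies of 6933 protein-coding genes. The counts were highest in the model Gm20388, with 109 of 370 IL7 peaks, and in Fgfr2, a growth factor receptor whose model here spans 3009 kb, with 49 of 146, shares of 29.5% and 33.6% that are near the 35.3% of the list. Larger shares were in Cdh13, a cadherin, with 20 of 28 peaks (71.4%), Mtus2, a microtubule-binding protein, with 20 of 33 (60.6%), and Accn1, a subunit of acid-sensing channels, with 19 of 31 (61.3%). In Cdh13, 18 of the 20 members had a matrix match and in Mtus2 15 of 20. Accn1 had 11 of 19, Gm20388 48 of 109 and Fgfr2 22 of 49, near the 47.5% of all members. From 2 to 4 members of each of these 5 genes lay above the median score. Per length, Ezh2 held 277 members per Mb, against 16.3 to 55.8 in the other 5 genes, which were picked by count. Among the 41 genes with at least 10 members the next highest were Emid2 at 70.7, Taok3 at 64.5 and Dnahc8 at 63.8.

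Along the chromosomes the IL7-only share ran from 30.7% of IL7 peaks on chromosome 17 to 38.7% on chromosome 18. Of fixed 1-Mb windows, chr18:37000000-37999999 held most, with 57 of 83 peaks (68.7%, 57.6% to 78.4%), 13 of them above the median score. This window holds the clustered protocadherins, whose isoform promoters are known to bind CTCF. The other windows with most members had 45 of 121 peaks at chr11:98000000-98999999, 43 of 125 at chr17:27000000-27999999, 42 of 89 at chr5:148000000-148999999 and 39 of 98 at chr11:120000000-120999999. Their shares, from 34.4% to 47.2%, were nearer to the 35.3% of the list.

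Gene lists, counted with 10 kb to either side of each gene body, gave the places where IL7-only peaks lie by function. Counts are read against 35.3% of all IL7 peaks and 6.11% of those above the median. The lists were chosen with earlier results of these data known, so they describe and test nothing. For every list the rule removes peaks that overlap pre-B CTCF or Rad21 of any cell type, so no share here is an independent measure.

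At genes that define the cell type, the IL7-only share was near that of the list or below it. Genes of B-lineage identity had 40 among 148 IL7 peaks (27.0%, 20.1% to 34.9%), and 6 of 64 above the median (9.38%, 3.52% to 19.3%). The strongest were 3944 bp from Cd79b, a chain of the B-cell receptor (score 571), 1866 bp from Igll1, a surrogate light chain (536), and inside Ikzf3, an Ikaros family factor (449). Genes of the IL7 receptor and Jak-Stat pathway had 24 of 101 (23.8%) and 0 of 49 above the median, which allows a share of up to 7.25% by the exact interval. Cell cycle genes had 31 of 86 (36.05%) and 3 of 37 above the median: at Cdkn2a, which codes for inhibitors of the cycle (468), E2f3 (346) and Top2a (343).

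The lists of other lineages, and of CTCF and cohesin, held fewer IL7 peaks in all. T-lineage genes had 6 of 65 (9.23%, 3.46% to 19.02%) and 0 of 33 above the median. The rule itself removes peaks that overlap Rad21 in DN or DP thymocytes, so this share, like those of the other lists, is no independent measure. Myeloid and other haematopoietic genes had 13 of 52 (25.0%) with 1 strong member, 2692 bp from the cytokine receptor gene Flt3 (score 579). Stromal genes had 12 of 45 (26.7%), and genes of CTCF, cohesin and their partners 17 of 51 (33.3%), both with 0 above the median.

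Antigen receptor V genes, the subject of the study, were close to the list or below it, and the same limit of the rule holds for them. Immunoglobulin V genes had 40 of 122 (32.8%, 24.6% to 41.9%) and 4 of 67 above the median. The strongest of these lay 7940 bp from Iglv2 (419), 2642 bp from Ighv1-85 (419) and 2141 bp from Ighv1-18 (321), both Ighv sites with a matrix match. T cell receptor V genes had 21 of 102 (20.6%) and 3 of 74 above the median, at or near Trav6-2 (800), Tcrg-V2 (321) and Trbv13-3 (317), all with a match.

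Clustered protocadherins, cell adhesion genes used by neurons, had the largest share of the 16 lists. IL7-only peaks were 53 of 78 there (67.9%, 56.4% to 78.1%) and 13 of 35 above the median (37.1%, 21.5% to 55.1%). At these genes 32 of the 53 were at promoters and 9 had a matrix match. The strongest were at Pcdhb14 (score 1046, with a match), Pcdhb16 (818) and Pcdhgc5 (736), both without. Of the sampled 36-base words of these 3 peaks, 20% of those at Pcdhb14 and 0% of those at Pcdhb16 and Pcdhgc5 occurred elsewhere in the genome.

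Olfactory receptor genes, also a family of copies, had 95 of 210 (45.2%, 38.4% to 52.2%) and 8 of 105 above the median, with Olfr269-ps1 (440), Olfr78 (418) and Olfr62 (404) the highest. Zinc-finger genes had 300 of 846 (35.5%) and 22 of 383 above the median, led by Zfp644 (1302), Zfp598 (840) and Zfp407 (687). Ribosomal protein names, which here take in pseudogenes and S6 kinase genes, had 121 of 414 (29.2%) and 6 of 217 above the median. The strongest lay 710 bp from Rpl7 (1112), 6301 bp from Rpl15 (393) and 4254 bp from Rps6kc1 (372). The first lay over the start of another gene, Rdh10, a retinol dehydrogenase.

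Histone genes had 14 of 69 (20.3%), 12 of them at promoters, none with a match and 0 of 27 above the median. Hox clusters had 9 of 34 (26.5%) and 1 strong member, at Hoxb7 (477). Imprinted genes had 17 of 47 (36.2%) and 3 of 23 above the median (13.0%, 2.77% to 33.6%): at Peg3 (609), 4246 bp from Igf2 (345) and at Meg3 (326), all with a matrix match.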

How the data were processed

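Peaks of 5 ChIP-seq libraries, CTCF in IL7-cultured pro-B and pre-B cells and Rad21 in pre-B, DN and DP cells, were analysed, with 1 library per condition. As the methods and the submitters' processing notes state, the authors removed duplicate reads, aligned to mm9 with Bowtie (0.12.9 in the notes), kept reads mapping to up to 3 places, and called peaks against the input of the same cells with MACS 1.4.2. The deposited score of each peak comes from its p-value, so peaks were ranked only within 1 list, and 1 alternative applied a common limit of 100 to all lists. Read depth is unknown. The authors' lists were not changed.

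Members and lists were chosen with earlier results of these data known. Starts, exons and sequence came from GENCODE vM1 and mm9. A promoter peak lies within 1000 bp of any annotated start. The consensus of 12 bases was searched with up to 2 mismatches. The matrix threshold is the score passed by 5% of neighbouring sequences of all peaks of the IL7 list, members included. Score classes are 10 classes of nearly equal size over the whole IL7 list. Repeated sequence was measured on words of 36 bases taken every 10 bases. Named were the 25 highest-scoring members, the 10 highest at promoters, the 5 genes and 1-Mb windows with most members, and up to 3 members above the median score per gene list. Ezh2's exons, the flanking block and its identity limit were examined after values had been seen. Sequences shown as matches met both the consensus and the matrix, the latter added later, and sequences overlapping annotated UTRs or on chromosome 18 were passed over.

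On simulated data 5000 of 5000 planted overlaps were called right, 2000 of 2000 planted sites were found, and exact intervals covered the simulated share in 951 of 1000 draws. Python 3.11.15, numpy 2.4.6, scipy 1.17.1, pandas 2.3.3, pysam 0.24.0, matplotlib 3.10.9 and samtools 1.23.1 were used.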

Additional observations from a re-analysis of the deposited data

How the results depend on the processing

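With 1 library per condition no replicate could be left out. No paired analysis was possible because no condition has more than 1 library and no result came from a test. The number of members was within 1.5 times of 24388 under all alternatives but one: the IL7 list limited to the length of the pre-B list, a shorter list by construction, left 4855. The number above the median score moved beyond that only with scores of at least 100 in all lists, to 3960.

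The promoter share of 13.8% became 14.4% with an overlap of 50% of the shorter peak, 11.7% for members more than 1000 bp from every other peak, 13.0% for the limited list and 16.9% for the rule without the Rad21 DP library. It was 10.1% and 19.8% with windows of 500 and 2000 bp, 12.5% by the peak midpoint, and 11.98% with protein-coding starts only, which was added after the data had been seen. The consensus share of 26.95% became 27.5% beyond 1000 bp from other peaks, 31.2% with scores of at least 100 and 34.2% for the limited list. It was 5.68% with 1 mismatch, 78.1% with 3 mismatches, 26.3% in the central 300 bp and 47.5% by the matrix. The size of this share thus depends on the mismatch limit. The other alternatives stayed inside the exact interval or within 1.5 times the count: 7 for each count of members, 4 for the promoter share and 5 for the consensus share.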

Other observations

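Among the 1312 windows of 1 Mb with at least 20 IL7 peaks, the highest IL7-only shares were in repeated sequence in 4 of 5 cases, which were picked after their values had been seen. At chr14:43000000-43999999, 20 of 21 IL7 peaks were IL7-only, and 19 of the 20 had at least 50% of their 36-base words elsewhere in the genome. The counts were 24 of 27 at chr12:19000000-19999999, with 19 mostly repeated, 22 of 25 at chr12:24000000-24999999, with 22, and 18 of 22 at chr9:3000000-3999999, with 16. The fifth, chr5:127000000-127999999, had 38 of 49 IL7-only peaks (77.6%, 63.4% to 88.2%), 5 of them above the median score, and none was mostly repeated. Read mapping as a source of these shares was not tested.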
